A study of Mus musculus with 109 samples.

Results

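B44 is a 4C-seq bait on mouse chromosome 8, placed between genes and beside Zfp42. Its data are the 12 columns of the deposited table whose titles name it, of 109 columns in all. In every library labelled 30 min, 3 h or 4 h after mitosis, and in 1 of the 2 technical replicates labelled 2 h, reads of B44 were concentrated in a block of 4.2 Mb that holds Zfp42 and Fat1 and dropped 4.38-fold to 13.5-fold at its 2 ends. In the libraries labelled mitosis, 1 h, G2 and G0 and in the other 2 h replicate the ratio of inside to outside was 0.824 to 1.59. In captured sites, HindIII sites with 1 read or more, this split into 5 and 7 libraries did not hold: 30 min replicate 1 and 2 h technical replicate 2 lay with the others at the lower end. A far HindIII site in a coding exon of Pcm1, inside this block, was left out of these ratios. It held up to 82.4% of the reads that lay beyond 2 Mb on chromosome 8 and changed the shares computed from reads.

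The cells were C127, a line from a mouse mammary tumour, fixed with 1% formaldehyde for 10 min. Mitotic cells were obtained with a nocodazole block of 4 h and collected at once or 0.5, 1, 2, 3 or 4 h after release. G2 cells were taken 15 h after release, and G0 cells had been starved of serum for 5 days. B44 had 2 libraries labelled G0, 1 labelled mitosis, 2 labelled 30 min, 2 labelled 1 h, 2 labelled as technical replicates of 2 h, 1 labelled 3 h, 1 labelled 4 h and 1 labelled G2. No genotype or agent beyond these was given, and the labels do not tie replicates of different baits to separate cultures, so p-values measure the spread between these libraries, which may in part be technical.

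In 4C-seq, chromatin is fixed, cut with a restriction enzyme and ligated, and the fragments joined to 1 chosen fragment, the bait, are sequenced. Contacts fall off with distance and tend to stop at the borders of topologically associating domains, blocks of chromatin whose parts meet each other more than their surroundings. Such domains are lost in mitotic chromosomes and form again as cells enter G1, and the study asked when this happens relative to the setting of the replication timing program. Zfp42 (also called Rex1) encodes a zinc finger protein known from pluripotent cells, and Fat1, which encodes an atypical cadherin, is its large neighbour across a stretch with few genes. No expression was measured here, so the activity of these genes in C127 cells is not known from the data.

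The sequences below place the bait and the far site, all from the plus strand of mm9, with the HindIII site in capitals. The primer lies at chr8:44417335-44417354, has 1 match in the genome and ends on the HindIII site at 44417349, from which all distances are counted. The bait stretch is chr8:44417302-44417401, between genes, with the start of Zfp42 at -25.0 kb. The far site stretch is chr8:42394854-42394953, at -2.02 Mb, and its HindIII site lies in a coding exon of Pcm1 (42394874 to 42395046, plus strand).
B44 primer: ggtcatccctttagAAGCTT
B44 bait: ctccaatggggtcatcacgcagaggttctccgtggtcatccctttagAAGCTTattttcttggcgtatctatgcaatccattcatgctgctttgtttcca
far site: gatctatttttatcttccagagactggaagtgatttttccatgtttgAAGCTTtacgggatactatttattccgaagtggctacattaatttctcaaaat
The far site shared 5 of the 14 primer bases before its HindIII site, and the 1 base directly before that site was the same. It therefore had little of the primer sequence beside its cut.

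The table gives raw read counts at 823352 HindIII sites. B44 libraries held 531754 to 7268391 reads, the fewest in the library labelled 3 h and the most in G0 replicate 1, and 11640 to 137309 sites were captured. Between 32.5% and 68.1% of the reads lay at the bait's own site. All 12 columns went with their bait: 36.0% to 73.6% of their reads lay within 100 kb of B44, against 0.231% at most in the other 97 columns. The titled times are in doubt. The libraries labelled 1 h replicate 2, 2 h technical replicate 1 and G0 replicate 1 had many captured sites on other chromosomes in common. They shared 61.2% to 64.9% of those in the library with fewer, against 6.24% to 35.0% in the other 63 pairs. This percent grows with the size of the larger library. The ratio to the sharing due by chance was 4.01 to 5.48 in the 3 pairs. In the other 63 it was 1.76 to 4.87, so the ranges overlapped. The labels' bar codes add 3 bases before the primer in G0 replicate 1 and 1 h replicate 2 and none in 2 h technical replicate 1, and whether they hold the same ligations was not tested. Results are therefore given by label, and the values without these 3 libraries are given where they matter.

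**Figure D1:**
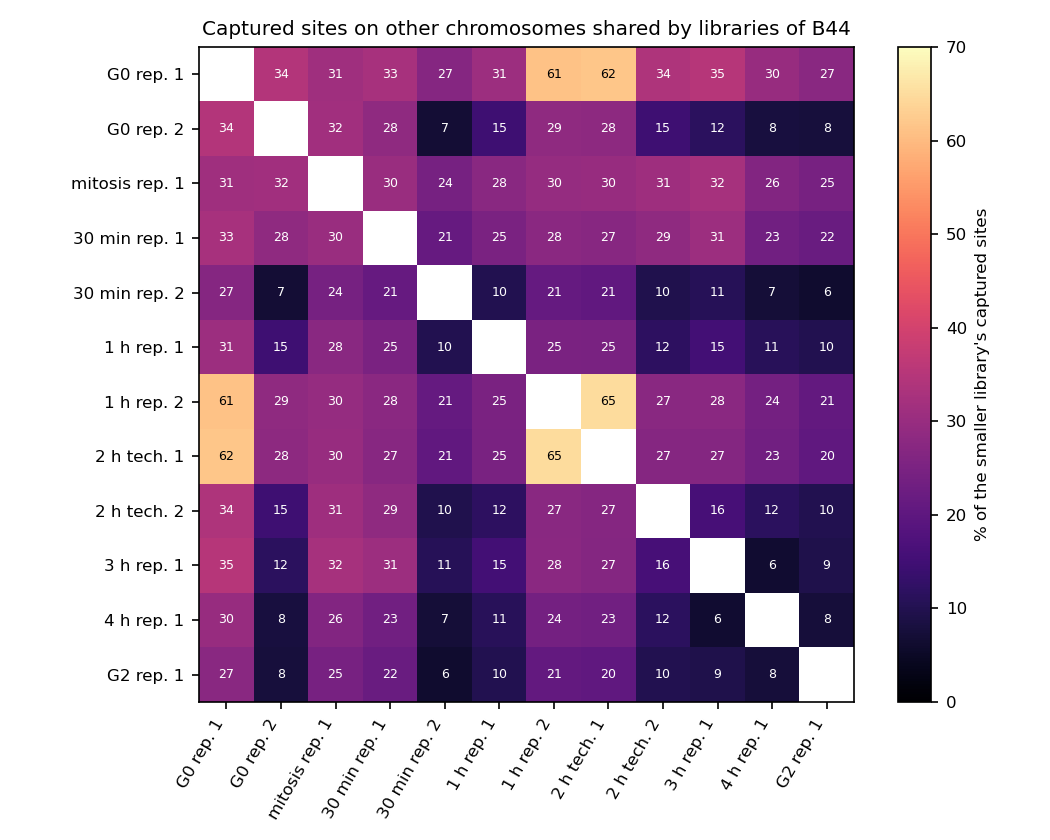
Each square gives the percent of sites captured on other chromosomes by the library with fewer of them that the other library also captured, for all pairs of the 12 B44 libraries named by their labels on both axes. The squares of 1 h replicate 2, 2 h technical replicate 1 and G0 replicate 1 read 61 to 65, and those of the other pairs read 6 to 35.

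Contacts within 2 Mb were described first, since they show the surroundings of Zfp42. Levels below are reads per HindIII site per 1000000 chromosome 8 reads more than 20 kb from the bait, with the far site left out. The 100-kb bin next to the bait on the side of lower coordinates (44317349 to 44417348), which holds Zfp42, took the most near reads, a mean of 15.6% over the 12 libraries. The bin on the other side of the bait (44417349 to 44517348) took 9.69% and holds no gene start. Further from the bait, the bin with Triml1 and Triml2, genes of the tripartite motif family (44217349 to 44317348), took 4.67%, and the bin with Adam26b, a gene of the ADAM metalloprotease family (44517349 to 44617348), took 4.58%. A bin 0.4 to 0.3 Mb below the bait took 3.18%, and one 0.7 to 0.8 Mb above it took 3.01%, and no protein-coding gene starts in either. The fewest reads fell in the bin with Zfp353 (43117349 to 43217348, 0.760%), in the bins 1.5 and 0.9 Mb below the bait (0.839% and 0.959%), and in those 1.4, 1.8 and 0.9 Mb above it (1.05%, 1.13% and 1.42%).

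Within 20 kb of the bait, some sites differed between libraries by more than the totals did. At 586 bp above the bait there were 470 and 4407 reads in the G0 libraries, 2014 in mitosis, 2027 and 9613 at 30 min, 5644 and 86 at 1 h, 68 and 2493 in the 2 h replicates, 3569 at 3 h, 4559 at 4 h and 32315 in G2. The library labelled G2 was the highest, and 2 h technical replicate 1 and 1 h replicate 2 were the lowest. At 2337 bp above the bait the libraries lay closer together, from 2239 reads at 3 h to 16687 reads in 2 h technical replicate 2. Reads within 20 kb were left out of all shares.

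The profile over 3 Mb on each side showed a block with ends in some libraries and a smooth decline in others. The position of the ends was chosen after seeing the profiles, at 2.1 Mb from the bait on both sides (42317349 and 46517349), so the sizes below are a description and no test was made. At the lower end, the ratio of the level 300 kb inside to that 300 kb outside was 1.59 and 1.40 in the G0 libraries, 1.14 in mitosis, 5.31 and 13.5 at 30 min, 1.40 and 1.30 at 1 h, 1.26 and 7.35 in the 2 h replicates, 7.86 at 3 h, 6.93 at 4 h and 1.57 in G2. At the upper end it was 1.01 and 1.04 in the G0 libraries, 1.30 in mitosis, 4.38 and 6.26 at 30 min, 1.02 and 0.917 at 1 h, 0.948 and 4.70 in the 2 h replicates, 11.1 at 3 h, 6.25 at 4 h and 0.824 in G2. The far site, at -2.02 Mb, lies in the 300 kb inside the lower end. It was left out of these ratios, and ratios with it kept were not computed. In reads without it, the same 5 libraries, both of 30 min, 2 h technical replicate 2, 3 h and 4 h, had a step at both ends, and no library had it at 1 end alone. Searching each library by itself put its largest step at 2.1 Mb in these 5 at the lower end and in 4 of them at the upper end, where the library labelled 4 h had it at 2.0 Mb.

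In captured sites the ends were sharp in only 3 of these libraries. At the lower end, 57.95% of sites inside and 23.2% outside were captured in 30 min replicate 2, 55.7% and 22.2% at 3 h, and 53.4% and 20.2% at 4 h. In 30 min replicate 1 the values were 72.7% and 56.6%, and in 2 h technical replicate 2 they were 68.2% and 51.5%. Those 2 were no further apart than in 1 h replicate 2 (64.8% and 46.5%) or 2 h technical replicate 1 (65.9% and 48.5%), which had no step in reads. At the upper end, 30 min replicate 2 had 77.2% and 41.4%, 3 h had 64.1% and 18.4%, and 4 h had 66.3% and 31.0%. There 30 min replicate 1 had 85.9% and 74.7% and 2 h technical replicate 2 had 79.3% and 72.4%, while the 7 libraries with no step in reads had 71.7% to 82.6% inside and 73.6% to 82.8% outside. The 3 libraries that were sharp in captured sites also captured the fewest sites beyond 2 Mb, and the part of that in the steps was not tested.

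**Figure D2:**
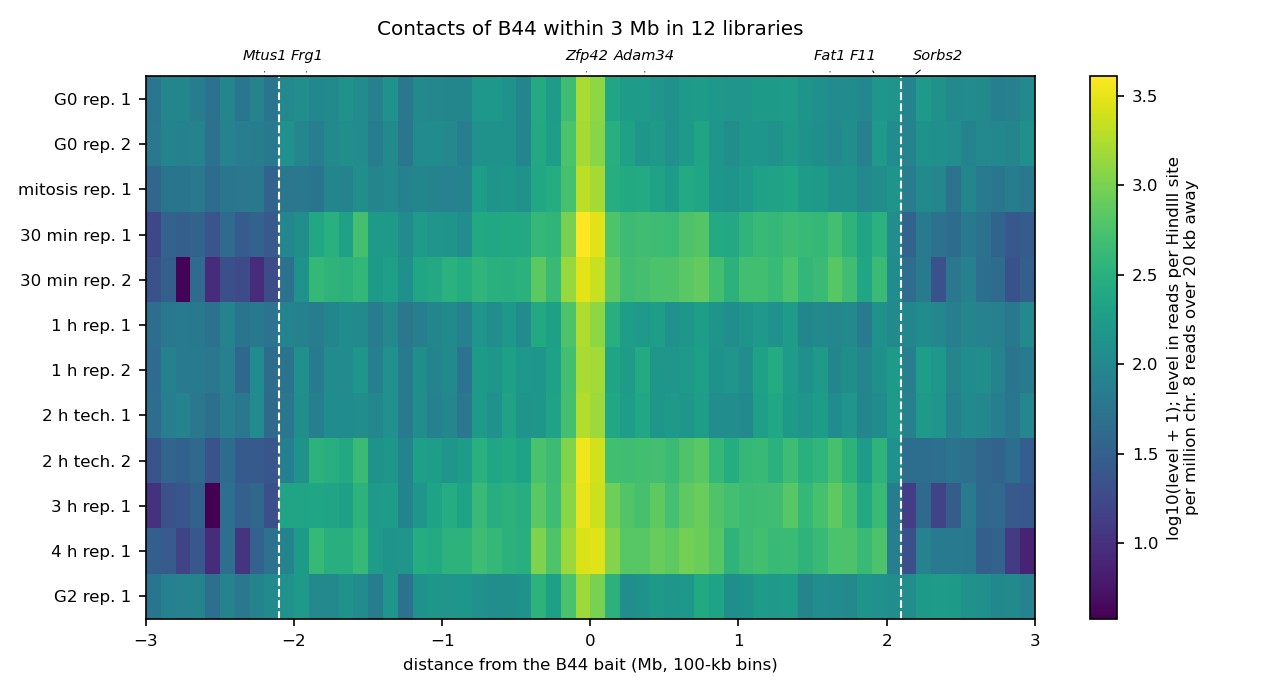
Level of B44 contacts in 100-kb bins within 3 Mb of the bait, on a log10 scale of reads per HindIII site per 1000000 chromosome 8 reads more than 20 kb away, with 1 row per labelled library. The dashed lines mark 2.1 Mb on each side, and the libraries labelled 30 min, 3 h and 4 h and 2 h technical replicate 2 drop there.

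The steps in reads did not follow the titled times: libraries labelled 30 min had them and those labelled 1 h did not. They did follow the order of columns in the table. B44 columns stood there as G0 replicate 2, G0 replicate 1, G2, mitosis, 1 h replicates 1 and 2, 2 h technical replicates 1 and 2, 30 min replicates 1 and 2, 3 h and 4 h, in positions 27 to 38. The 5 libraries with steps were the last 5 positions, 34 to 38. The 2 technical replicates of 2 h stood side by side and fell on different sides, with 1.26 and 7.35 at the lower end. The cause of this split was not tested, and no library was given another label.

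**Figure D3:**
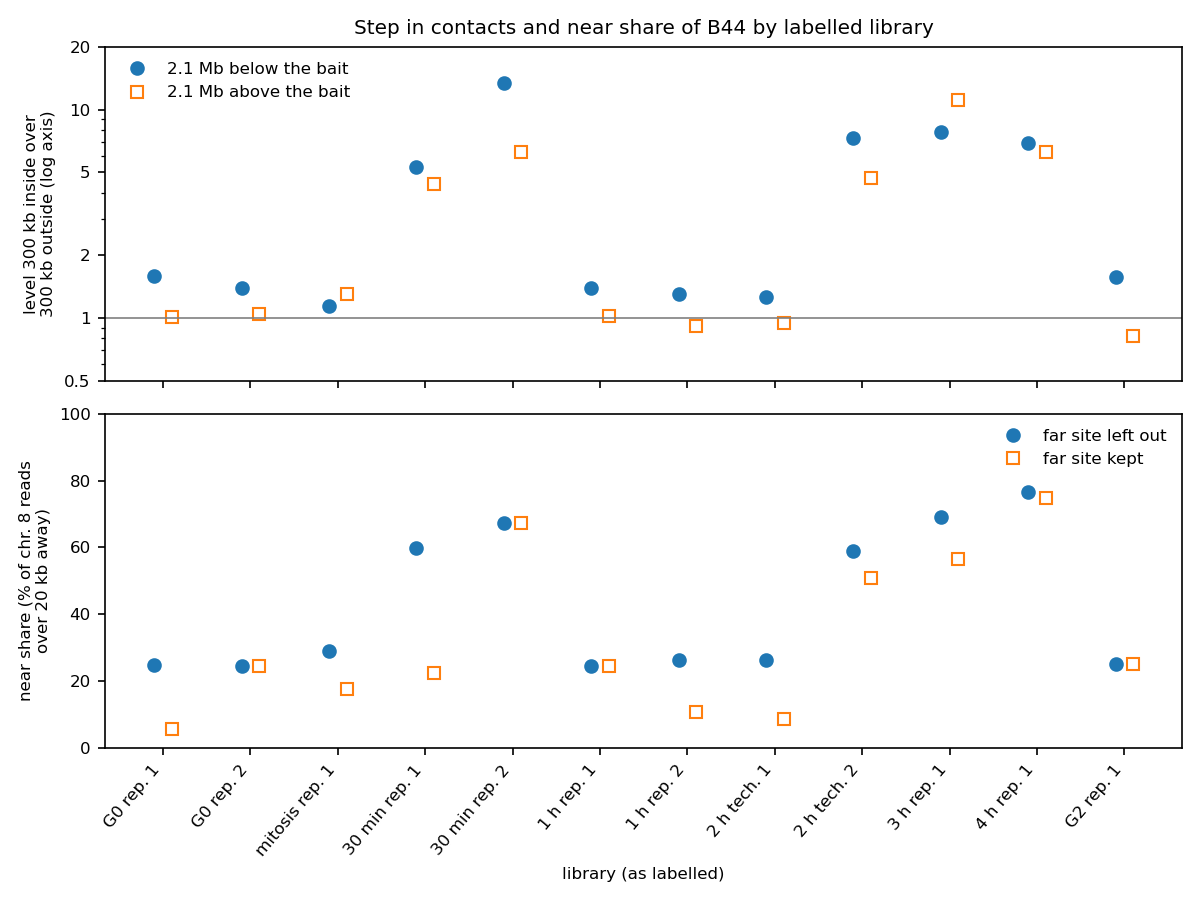
Above, the level 300 kb inside over 300 kb outside the lower (circles) and upper (squares) end of the block, on a log axis, for each labelled library. The far site was left out, and 5 libraries lie between 4.38 and 13.5 and 7 between 0.824 and 1.59. Below, the near share with the far site left out (circles) and kept (squares), in percent of chromosome 8 reads more than 20 kb away; the same 5 libraries lie between 59.0% and 76.6% without the far site.

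The block of 4.2 Mb held 1358 HindIII sites and the starts of 20 protein-coding genes, with 39.3% GC. The 2 Mb below it held 15 starts at 39.5% GC, and the 2 Mb above it held 20 starts at 43.1% GC. Its lower end lay between Mtus1, whose product binds microtubules, and Pcm1, which encodes a protein of centriolar satellites. Its upper end lay between Tlr3, a receptor for double-stranded RNA, and Sorbs2, which encodes an adaptor protein of the cytoskeleton. Asah1 (acid ceramidase) and Frg1 lay inside the lower end, and the coagulation genes F11 (factor XI) and Klkb1 (plasma kallikrein) lay inside the upper end.

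Levels at genes inside the block followed the steps at some genes and not at others. Zfp42 (3 sites, all captured in all 12 libraries) had levels of 5223 and 4011 in the G0 libraries, 6132 in mitosis, 12440 and 7052 at 30 min, 4490 and 6895 at 1 h, 5835 and 8808 in the 2 h replicates, 6724 at 3 h, 5058 at 4 h and 2300 in G2. It was highest in 30 min replicate 1 and lowest in G2, with no split along the steps. Triml2, at -151 kb, had 1007 and 1211 in the G0 libraries, 1125 in mitosis, 2255 and 2792 at 30 min, 1105 and 912 at 1 h, 1006 and 2269 in the 2 h replicates, 2649 at 3 h, 3106 at 4 h and 943 in G2. The 5 libraries with steps gave its 5 highest levels.

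Fat1 starts at 1618 kb and had 42 sites, of which 40 were captured in some library. Its level was 111 and 115 in the G0 libraries, 128 in mitosis, 460 and 657 at 30 min, 93.2 and 111 at 1 h, 133 and 486 in the 2 h replicates, 701 at 3 h, 590 at 4 h and 107 in G2. The libraries fell into 2 separate ranges, 93.2 to 133 and 460 to 701. F11, at 1930 kb, ran from 38.8 in G2 to 986 at 4 h, and Mtnr1a, a melatonin receptor gene at 1737 kb, from 40.2 in 1 h replicate 2 to 855 at 4 h. Of the 15 genes inside the block that were named by rule and had HindIII sites, 6 (Triml2, Adam34, Fat1, Mtnr1a, F11 and Klkb1) had their 5 highest levels in the 5 libraries with steps, and 9 were mixed. Among the mixed genes were Pcm1, Asah1, Frg1 and Tlr3 at the ends of the block. Triml1, Adam26b and Adam26a were mixed too, each with 3 sites of which at most 2 were captured. F11 and Klkb1 lie in the stretch inside the upper end from which the step ratio was taken. Their order thus in part repeats the values that picked these libraries, and is no separate finding. Pcm1, Asah1, Frg1 and Tlr3 lie in such stretches too. Triml2, Adam34, Fat1 and Mtnr1a lie nearer to the bait than these stretches.

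At most of the named genes outside the block the libraries with steps were the lowest. Sorbs2, at 2176 kb with 92 sites, had levels of 134 and 126 in the G0 libraries, 87.9 in mitosis, 52.2 and 48.7 at 30 min, 99.4 and 143 at 1 h, 130 and 50.4 in the 2 h replicates, 26.7 at 3 h, 69.3 at 4 h and 175 in G2. Irf2, which encodes an interferon regulatory factor and starts at 3408 kb, had 124 and 104 in the G0 libraries, 82.3 in mitosis, 29.6 and 17.5 at 30 min, 82.4 and 131 at 1 h, 130 and 24.6 in the 2 h replicates, 49.7 at 3 h, 5.02 at 4 h and 85.6 in G2. Both had their 5 lowest levels in the 5 libraries with steps. So did 10 of the 15 genes outside, among them Acsl1, an acyl-CoA synthetase gene, and on the other side Mtus1, Cnot7 and Sgcz, and 5 were mixed. Since levels are relative to all reads of chromosome 8, higher levels inside and lower levels outside are tied to each other. Mtus1 lies in the stretch outside the lower end from which the step ratio was taken, and Sorbs2 lies partly in that outside the upper end. The order at Mtus1 and Sorbs2 thus in part repeats the values that picked these libraries. Acsl1, Irf2, Cnot7 and Sgcz lie further from the bait than these stretches. Gm2221, Gm5346 and Slc25a4 held no HindIII site and have no level.

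The near share sums this up as the percent of chromosome 8 reads more than 20 kb from the bait that lay within 2 Mb. With the far site kept, it was 5.48% and 24.5% in the G0 libraries, 17.5% in mitosis, 22.5% and 67.3% at 30 min, 24.5% and 10.7% at 1 h, 8.70% and 50.9% in the 2 h replicates, 56.6% at 3 h, 74.8% at 4 h and 25.2% in G2. With it left out, the share was 24.8% and 24.5% in the G0 libraries, 29.0% in mitosis, 59.8% and 67.3% at 30 min, 24.5% and 26.2% at 1 h, 26.4% and 59.0% in the 2 h replicates, 69.0% at 3 h, 76.6% at 4 h and 25.2% in G2. The G0 libraries differed in near share with the far site kept and lay at 24.8% and 24.5% without it. There the libraries with steps lay at 59.0% or above and the others at 29.0% or below.

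For the planned comparisons the 2 h technical replicates were summed and counted as 1 library. The near share averaged 51.5 ± 26.2% in libraries labelled 2 to 4 h (SD, n = 3), against 31.2 ± 24.8% in those of the first hour (SD, n = 4). The difference of 20.2 points was smaller than the spread within each group (exact permutation test, two-sided over 35 regroupings, p = 0.286). In G0 the near share averaged 15.0 ± 13.4% (SD, n = 2), which was 36.5 points under libraries labelled 2 to 4 h (exact permutation test, two-sided over 10 regroupings, p = 0.3). Without the far site the G0 libraries averaged 24.6 ± 0.221% (SD, n = 2) and those labelled 2 to 4 h 63.6 ± 16.4% (SD, n = 3). The difference between 2 to 4 h and the first hour was 34.4 points without 2 h and 8.57 without 4 h. With 10 regroupings the comparison with G0 cannot reach 0.05. The adjusted p over the 6 share tests was 0.36 for both comparisons.

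The 2 sides of the bait were not read alike in all libraries. Of the near reads, the part on the side of lower coordinates, that of Zfp42, was 50.2% and 49.5% in the G0 libraries, 45.9% in mitosis, 44.1% and 43.4% at 30 min, 50.8% and 47.8% at 1 h, 49.1% and 44.5% in the 2 h replicates, 39.7% at 3 h, 40.6% at 4 h and 51.7% in G2. The lowest values were those of 3 h and 4 h, whose reads leaned to the Fat1 side. The mean was 42.0 ± 3.22% in libraries labelled 2 to 4 h (SD, n = 3), against 46.5 ± 3.45% in the first hour (SD, n = 4; exact permutation test, two-sided, p = 0.171). It was 49.8 ± 0.510% in G0 (SD, n = 2), 7.87 points above 2 to 4 h (exact permutation test, two-sided over 10 regroupings, p = 0.2).

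Captured sites near the bait were much less different between libraries than reads. On the Zfp42 side 380 to 443 of 629 sites were captured per library (60.4% to 70.4%), and on the Fat1 side 457 to 530 of 660 (69.2% to 80.3%). Mitosis had the highest number on both sides, shared on the Zfp42 side with 30 min replicate 1. In all 12 libraries together, 144 sites on the Zfp42 side and 93 on the Fat1 side had no read. The part of captured near sites that lay on the Zfp42 side ran only from 43.4% to 46.2%. The near share of captured sites, in contrast, ran from 4.68% in mitosis to 28.1% at 3 h, because the number of captured sites beyond 2 Mb is in its denominator and ran from 2240 at 3 h to 19815 in mitosis.

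Regions were tested as 100-kb bins within 2 Mb with edgeR's quasi-likelihood test, with Benjamini-Hochberg adjustment over the bins of all 6 baits of chromosome 8. Between libraries labelled 2 to 4 h and the first hour, 0 of the 40 bins of B44 passed an adjusted p of 0.05, against 0% of the 240 bins of the 6 baits. At an unadjusted p under 0.05 there were 3 of 40, and DESeq2 called 0. Between G0 and 2 to 4 h, edgeR called 1 of 40 bins, against 5.83% of the 240 (1.25% higher and 4.58% lower in G0). This bin, 43017349 to 43117348 on the side of Zfp42, was higher in G0 by a log2 fold change of 0.97 (SE 0.30, edgeR's quasi-likelihood adjusted p = 0.0378). It holds no start of a protein-coding gene. The call was lost on captured sites and with any of G0 replicate 1, G0 replicate 2, 3 h or 4 h left out, so it rests on each of those libraries. On the Fat1 side, the bin that starts 1.6 Mb above the bait, which holds the start of Fat1, had a log2 fold change of -0.94 in G0 (SE 0.45, edgeR's quasi-likelihood adjusted p = 0.203).

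B44 was set against the other 5 baits of chromosome 8 in libraries of the same 10 labels. With all sites kept, its near share averaged 33.4%, against 46.4% for the mean of the other baits. The difference was -13.0 ± 15.0 points (SD over 10 labels), and it was above 0 in 2 of 10 labels (two-sided exact permutation test flipping signs, p = 0.0312, adjusted over 3 measures 0.0938). Without the far site it was -2.14 points (exact sign-flip permutation test, p = 0.449). With reads capped at 100 per site the direction turned, with 24.5% for B44 and 17.8% for the others, a difference of 6.70 points (exact sign-flip permutation test, p = 0.00977). The part of near reads on the lower side was 46.3% for B44 and 48.9% for the others (-2.59 ± 5.69 points, exact sign-flip permutation test, p = 0.184). With a near limit of 1 Mb the direction turned, to 1.70 points (exact sign-flip permutation test, p = 0.379). On captured sites the difference was -4.49 points, with 45.4% for B44 and 49.9% for the others (exact sign-flip permutation test, p = 0.00195, the smallest value that 1024 flips can give). The HindIII map is the same in every label, with 629 near sites on the lower side of B44 and 660 on the other. This p, like those of all sign-flip tests here, measures how constant 1 bait against 5 was over labels. The part of the map was not tested.

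Labels that were high for B44 were also high for the other baits. Without the far site, B44 had near shares of 59.8% and 67.3% at 30 min, where the means of the other baits were 54.5% and 57.4%. At 1 h B44 had 24.5% and 26.2%, and the other baits 31.9% and 42.2%. In 2 h technical replicates 1 and 2 B44 had 26.4% and 59.0%, and the other baits averaged 42.3% and 53.9%. At the same distance of 2.1 Mb above the bait, the read ratio of inside to outside at B7 was 2.27 to 4.63 in the 5 labels with steps at B44 and 1.14 to 1.93 in its other 7 columns. At B87, a bait in the gene Dnase2a, it was 2.23 to 45.0 in those labels and 0.845 to 4.15 in its other columns, so these overlapped. At the other 3 baits no such drop was seen on that side in those labels, with 0.414 to 1.06 at B118, 0.0986 to 1.24 at B26 and 1.09 to 1.71 at B53. On the lower side B7 gave 0.963 to 1.16 in those labels and 0.954 to 1.16 in its other columns. B87 gave 0.355 to 7.32 and 1.13 to 1.46, and B118 gave 1.08 to 1.90 and 1.03 to 1.18. B26 gave 0.216 to 0.867 and 0.979 to 1.25, and B53 gave 0.684 to 1.97 and 0.878 to 1.22. B26 and B118 met the 4.2 Mb around B44 in turn less than its flanks in those 5 labels, with captured shares inside over outside of 0.459 to 0.825 and 0.585 to 0.810, and of 0.904 to 1.01 and 0.906 to 0.994 in their other columns. B87 gave 0.227 to 0.640 in those labels and 0.721 to 1.01 in its other columns. Its lowest value, from 4 h, rests on few sites, with 0.295% captured inside and 1.30% outside. Captured sites were also few for B87 at 3 h (1.25% and 2.29%) and for B7 at 4 h (1.25% and 1.07%). B7 and B53 gave 0.996 to 1.19 and 0.954 to 1.40 in those labels. These labels were picked on B44 values, so no test was made.

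The far site at 42394901 held 3108109 and 430 reads in the G0 libraries, 651925 in mitosis, 833183 and 327 at 30 min, 679 and 1051815 at 1 h, 1013496 and 106691 in the 2 h replicates, 19786 at 3 h, 8540 at 4 h and 381 in G2. It was thus between 8540 and 3108109 in 8 libraries and between 327 and 679 in 4, and neither the labels nor the steps followed it. It made up 82.4% and 0.0930% of the chromosome 8 reads beyond 2 Mb in the G0 libraries, 48.01% in mitosis, 80.5% and 0.203% at 30 min, 0.0911% and 66.1% at 1 h, 73.4% and 27.9% in the 2 h replicates, 41.4% at 3 h, 9.64% at 4 h and 0.0491% in G2. The 8 nearest HindIII sites, within 23170 bp, had 324 reads at most in any library. In the 58 columns of the other baits of chromosome 8 the far site had 0 to 483 reads. The high reads were thus found with B44 only among these 6 baits, at 1 site. B44 libraries with 651925 or more reads there captured 89640 to 119879 sites on other chromosomes, and the other B44 libraries 8514 to 33758. The cause was not tested.

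**Figure D4:**
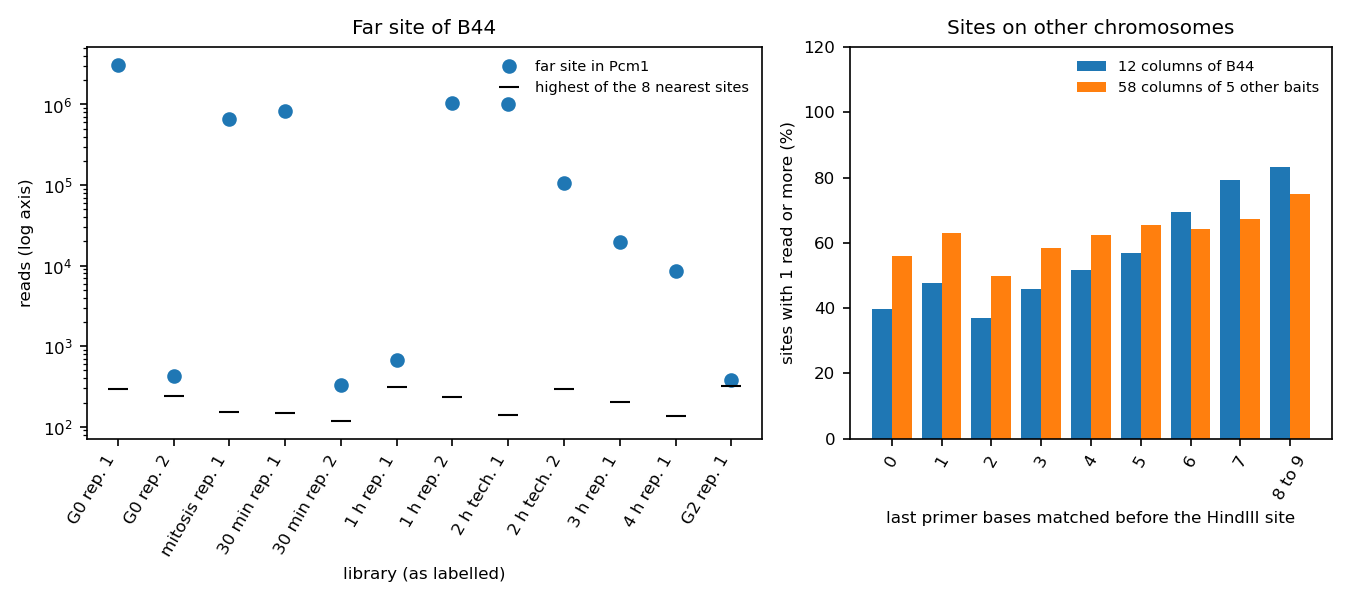
Left, reads at the far site in Pcm1 (circles, log axis) for each labelled B44 library, with the highest of its 8 nearest HindIII sites (dashes); circles lie from 327 to 3108109 and no dash exceeds 324. Right, the percent of HindIII sites on other chromosomes with 1 read or more, by how many of the last primer bases before the HindIII site they match, for the 12 columns of B44 and the 58 columns of 5 other baits; B44 bars reach 79.3% at 7 bases and 83.3% at 8 to 9.

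Some sites on other chromosomes also came up in every B44 library. Of 783872 such sites, 134 were captured in all 12 columns and 458638 in none, and of 38179 sites beyond 2 Mb on chromosome 8 these numbers were 53 and 10169. Below are 5 of the sites captured in all 12 columns with the primer beside them, read toward their HindIII site, to show how much of the primer each holds. Capitals mark the HindIII site and the run of primer bases directly before it.
B44 primer: ggtcatccctttagAAGCTT
chr10:114657542-114657561, minus strand: ttcccTCCCTTTAGAAGCTT
chr5:22047329-22047348, plus strand: ctggcatcccTTAGAAGCTT
chr9:68736989-68737008, minus strand: gtgtcaagggccAGAAGCTT
chr9:69187541-69187560, plus strand: ggccatcccttacGAAGCTT
chrX:149596593-149596612, plus strand: ctactcctaacagaAAGCTT
The site on chromosome 10 matched 9 primer bases in a row and had a median of 1718.5 reads over the 12 libraries. The second site on chromosome 9 matched 1 base in a row but 11 of 14 in all on the strand shown, with a median of 781 reads. The site on chromosome X matched 0 in a row and 2 of 14 on the strand shown, with a median of 1761.5 reads, so a match was not shared by all of them.

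Across all sites on other chromosomes, those with 4 or more matched bases were captured more often in B44 libraries than those with 0 to 3, with no steady order among the short matches. Of 460749 sites with no matched base, 39.8% had a read in some B44 library, and with 1, 2 and 3 bases the values were 47.7%, 37.0% and 45.9%. They were 51.7%, 56.9% and 69.5% with 4, 5 and 6 bases, 79.3% of the 116 sites with 7 bases and 83.3% of the 24 with 8 to 9. In the other baits' columns, where this primer was not used, 55.9% of sites with 0 bases, 67.2% with 7 and 75.0% with 8 to 9 had a read. Reads differed more: the median of the sum over 12 columns was 1071.5 at 8 to 9 bases in B44, against 33.5 in the other baits' 58 columns. Among the 12 sites with most reads on other chromosomes, 4 matched 7 bases or more, as did 140 (0.0179%) of all 783872. Sites with 7 or more matched bases held 0.150% to 7.91% of the reads on other chromosomes. This comparison was made after seeing the sites, and no test was made.

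Beyond 2 Mb, the number of captured sites and its decline with distance differed between libraries. On chromosome 8 there were 16530 and 15098 captured sites beyond 2 Mb in the G0 libraries, 19815 in mitosis, 15131 and 3704 at 30 min, 18313 and 15229 at 1 h, 15558 and 13226 in the 2 h replicates, 2240 at 3 h, 2247 at 4 h and 8621 in G2. The libraries labelled 3 h and 4 h and 30 min replicate 2 were lowest. At 2 to 4 Mb these 3 captured 19.6%, 21.2% and 26.9% of sites, and the other 9 captured 61.0% to 74.1%. At 64 to 90 Mb, the far end of the chromosome, G0 replicate 1 captured 25.0% and G0 replicate 2 9.67%, mitosis 32.9%, 30 min replicate 1 34.5% and G2 4.22%. Mitosis and 30 min replicate 1 declined least. These numbers move with depth and with the reads spent per site: the median reads per captured site on other chromosomes was 2 in 6 libraries and 26, 15 and 31 in 30 min replicate 2, 4 h and G2. Their part in the decline was not tested.

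**Figure D5:**
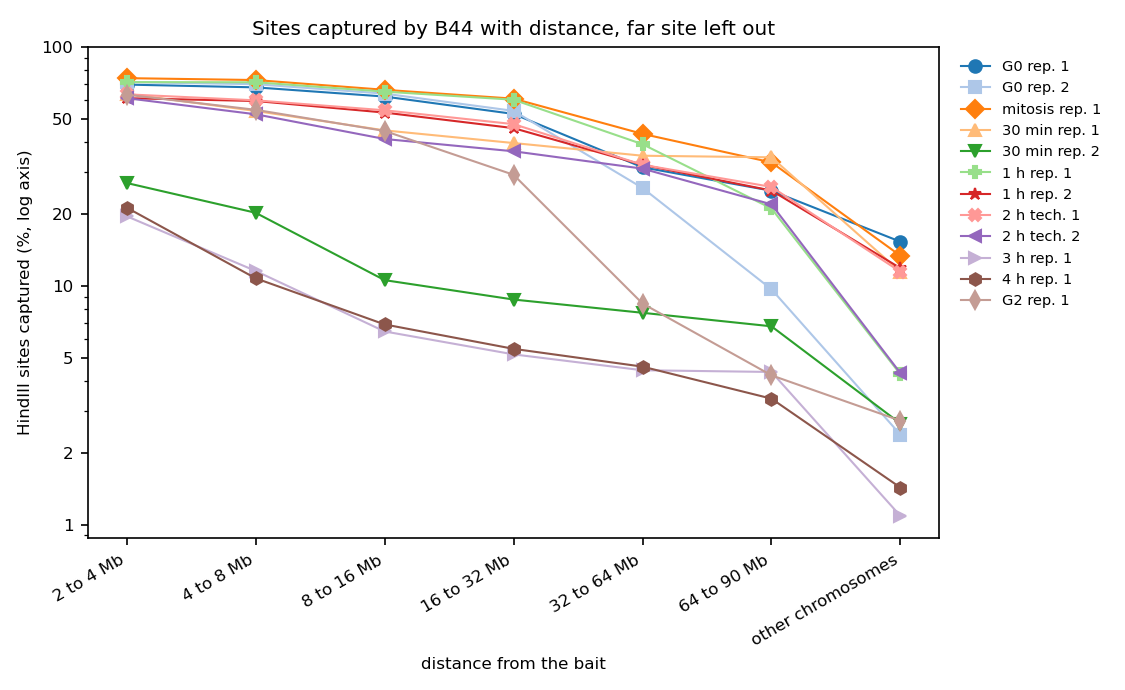
Percent of HindIII sites captured by B44 (log axis) in classes of distance from the bait on chromosome 8 and on other chromosomes, with 1 line per labelled library and the far site left out. The lines of 30 min replicate 2, 3 h and 4 h start between 19.6% and 26.9% at 2 to 4 Mb, and the other 9 start between 61.0% and 74.1%.

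Long-range profiles were compared as log2 observed over expected captured sites in 500-kb bins, with each library thinned to 2239 captured sites and the 2 h replicates summed. Among 243 bins with 50 or more sites, 5 lay above 0 and 19 below 0 in all 11 libraries, and the median SD between libraries was 0.30. The bin at 49500001 to 50000000, in Odz3, a teneurin gene, was above 0 in 11 of 11 libraries (0.35 ± 0.19, SD). The bin at 90000001 to 90500000, with Zfp423, which encodes a zinc finger transcription factor, gave 0.35 ± 0.20 and was above 0 in 10 of 11. The bin at 79500001 to 80000000, in which no protein-coding gene starts, gave 0.38 ± 0.29 (10 of 11). The bin at 23000001 to 23500000, with 4 beta-defensin genes and Atp7b, a copper transporter gene, among the 14 genes that start in it, gave 0.34 ± 0.39 (9 of 11). The bin at 129500001 to 130000000, with the polarity gene Pard3, had the highest mean, 0.55 ± 0.53, and was above 0 in 9 of 11. On the low side were 2 bins of the defensin cluster just below the bin at 23000001, whose genes encode antimicrobial peptides. They gave -2.78 ± 0.67 at 22000001 to 22500000 and -0.96 ± 0.26 at 22500001 to 23000000. A bin of 3 genes at 19500001 to 20000000 gave -2.03 ± 0.39, and the bin at 73500001 to 74000000, with Myo9b and Nr2f6 among 12 genes, gave -1.07 ± 0.30, all 4 below 0 in 11 of 11 libraries. The bin at 127500001 to 128000000, with Tsnax and Disc1, gave -0.80 ± 0.54 and was above 0 in 1 of 11. Expected values came from the number of HindIII sites and the distance alone. Sites where reads cannot be mapped uniquely, as may occur in gene clusters, were not corrected for, and their part in the low bins was not tested.

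In the test of 500-kb bins, 0 of 245 bins of B44 differed between 2 to 4 h and the first hour by edgeR's quasi-likelihood test, against 0% of 1473 bins of the 6 baits, with 9 at an unadjusted p under 0.05 and 0 by DESeq2. Between G0 and 2 to 4 h, 0 of 245 bins passed, again against 0% of 1473, with 76 at an unadjusted p under 0.05. The smallest adjusted p was 0.0637, at 9500001 to 10000000, where the log2 fold change of G0 over 2 to 4 h was -1.95 (SE 0.59, edgeR's quasi-likelihood test). DESeq2 called 44 of these bins, 7 higher and 37 lower in G0. The median log2 fold change over the bins was -0.41 with TMM scaling and -0.83 with scaling by read totals, so a lower value of a bin in G0 depends in part on the scaling.

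Of all reads more than 20 kb from the bait, chromosome 8 held 84.7% and 86.4% in the G0 libraries, 73.7% in mitosis, 70.7% and 39.5% at 30 min, 77.1% and 70.7% at 1 h, 73.1% and 70.2% in the 2 h replicates, 61.3% at 3 h, 49.8% at 4 h and 51.2% in G2. Without the far site G0 replicate 1 fell to 54.9%, while G0 replicate 2 stayed at 86.4%. The mean was 61.1 ± 11.1% in libraries labelled 2 to 4 h (SD, n = 3), against 64.5 ± 16.9% in the first hour (SD, n = 4; exact permutation test, two-sided, p = 0.8). In G0 it was 85.5 ± 1.26% (SD, n = 2), 24.5 points above 2 to 4 h (exact permutation test, two-sided over 10 regroupings, p = 0.2). Without the far site G0 averaged 70.7 ± 22.3% (SD, n = 2), and 2 to 4 h 54.2 ± 4.34% (SD, n = 3). Against the other baits B44 had 66.4% and they had 62.9%, a difference of 3.47 ± 6.03 points (p = 0.102 in the same exact test), which was -5.97 points without the far site (p = 0.0840 in the same exact test). On captured sites B44 had 23.8% and the others 34.9%, a difference of -11.1 points (p = 0.00195 in the same exact test).

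On other chromosomes B44 captured 8514 sites at 3 h to 119879 sites in G0 replicate 1, or 1.09% to 15.3% of 783872. Relative to the share of HindIII sites on each chromosome, captured sites were most frequent on chromosome 19 (1.56 ± 0.103, SD over 12 libraries), where the other baits had means of 1.44 to 1.63. Chromosome 10 came next with 1.51 ± 0.138, and its lowest B44 library, at 1.41, lay above the means of the other 5 baits (1.30 to 1.33). Chromosome 9 had 1.20 ± 0.114 for B44 and 0.978 to 1.03 for the others. Chromosomes 17 and 15 had 1.25 ± 0.0806 and 1.22 ± 0.0934 for B44, with 1.38 to 1.46 and 1.35 to 1.43 for the others. Chromosomes X and 14 were low, with 0.566 ± 0.0411 and 0.586 ± 0.0323, and Y was lowest with 0.0151 ± 0.0261. The differences of B44 from the other baits on chromosomes 9, 10, 15 and 17 were not tested.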

How the data were processed

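4C-seq with HindIII as first enzyme was read in 50 bp reads. The deposited unit was raw read counts per HindIII site; BWA 0.5.9 and mm9 were used per the submitters' processing notes, and read filters are not given in the sources used here. Counts were used as deposited. Table positions equalled the HindIII sites of mm9 on 21 chromosomes, and genes came from the GENCODE annotation of that build. The 39 columns of other chromosomes' baits and of 1.5 h entered only the check of each column's bait.

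The libraries, gene lists and measures were chosen with earlier results of these data known. Genes were named by rule: all within 500 kb of the bait and a list of known genes on both sides. The values of 1 of these genes are not reported here. Named bins were the 3 highest and lowest near bins of each side and the 5 highest and lowest long-range bins, and called bins.

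In R 4.3.3, edgeR 4.0.16 fitted each bait on its own with stage as the term, on bins that passed filterByExpr, after TMM scaling (robust glmQLFit, then glmQLFTest). The 50 kb beside the bait were left out. DESeq2 1.42.0 was an alternative. Expected captured sites were a lowess curve over log distance, with a span and pseudocount of 0.5 and 10 thinning draws. Share tests were exact permutations (scipy 1.17.1, Python 3.11.15). In simulated near bins with 40 of 240 changed 4-fold, 85% were called, and 2.86% of 35 calls were false. In simulated long-range bins with 200 of 1471 changed 4-fold, 83.5% were called, and 5.65% of 177 calls were false. Same replicate numbers did not pair libraries: deviations of 30 min with 1 h, 30 min with G0 and 1 h with G0 correlated at -0.554, 0.0754 and -0.415 over 40 bins. Reads carry no molecular identifiers and PCR copies cannot be told apart, so no counting interval is given.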

Additional observations from a re-analysis of the deposited data

Results flagged for a closer look

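Among the 4 libraries labelled first hour, 3 values stood apart from the others by Dixon's criterion, which chance meets in about 1 of 20 groups. Each share was searched under several ways of counting, some with equal values. Some flags by chance are therefore more likely than that rate for a single group. In 30 min replicate 2 the near share of captured sites was 19.6% and the highest of the 4, while the chromosome 8 share of reads was 39.5% and the lowest. In 1 h replicate 1 the chromosome 8 share of captured sites was 36.6% and the highest. The library 30 min replicate 2 also had 26 reads per captured site on other chromosomes in the median, against 2, 4 and 2 in the other 3.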

How the results depend on the processing

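Of 232 alternatives to 13 results, 188 were alike, 11 turned the direction, 11 lost and 5 gained a p under 0.05, and 17 moved a count. Alike meant the same direction and side of 0.05 for shares. For bins it meant an equal or similar number of calls, mostly 0, whatever their direction. Share tests of G0 against 2 to 4 h could not reach 0.05, so their side of the threshold was fixed in advance. The same held for 2 to 4 h minus first hour in every setting that left out a whole library, since regroupings were too few. That those were alike in side of 0.05 therefore says nothing of stability. The cause of the changes was not tested. The chromosome 8 share of 2 to 4 h minus first hour turned to 0.0962 on captured sites, 0.745 without the far site, 0.274 without it and sites that match 7 or more primer bases (chosen after seeing the data), 0.758 without 1 h replicate 1 and 2.20 without 4 h. The near share of B44 minus the other baits turned to 1.75 on sites with 10 reads or more (p = 0.553, exact permutation test) and 6.70 with reads capped at 100 (p = 0.00977, exact permutation test). It missed 0.05 at -1.17 on captured sites, -2.14 without the far site, with or without primer-like sites, -10.98 with 50 kb left out, -6.57 without the labels 1 h replicate 2, 2 h and G0 and -6.20 without the 3 libraries that share sites (chosen after seeing the data). The lower-side share minus the other baits was 1.70 with a near limit of 1 Mb, and passed 0.05 at -4.49 on captured sites, -5.12 at 10 reads or more, -6.43 capped and -6.91 with 50 kb left out. The chromosome 8 share minus the other baits turned to -11.1 on captured sites, -5.97 without the far site and -5.22 without primer-like sites too, and was 4.81 without G2, where it passed.

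Leaving out 1 library at a time, the differences of 2 to 4 h minus first hour ran from 8.57 (without 4 h) to 34.4 (without 2 h) for the near share, -6.40 to -3.13 for the lower-side share and -11.8 to 2.20 for the chromosome 8 share. Those of G0 minus 2 to 4 h ran from -50.7 to -24.8, 6.73 to 9.71 and 18.8 to 30.0. Those of B44 minus other baits ran from -15.5 to -10.9 (where the near share missed 0.05 without any of G0 replicate 1, 30 min replicate 1, 1 h replicate 2, 2 h and G2), -3.38 to -1.56 and 2.23 to 4.81. Called bins were 0 to 0 near and 0 to 6 long-range for 2 to 4 h over first hour, and 0 to 2 near and 0 to 40 long-range for G0 over 2 to 4 h; the 6 and 40 came without 2 h.

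Near bins called between G0 and 2 to 4 h numbered 4 with DESeq2, 0 on captured sites, 0 with 2 h technical replicate 1 alone, 3 with technical replicate 2 alone and 0 without the 3 libraries that share sites. Long-range bins numbered 44 with DESeq2, 6 on captured sites, 17 in 1-Mb bins, 26 with technical replicate 2 alone and 10 with the replicate block. With the replicate block and 2 h left out, the near share differences were 42.2 and -60.2 points, and the near bins called 0 and 1. The numbers do not pair the libraries, so the block says nothing of effect size. The libraries labelled 3 h and 4 h captured the fewest sites, which limits their long-range profiles.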
